A study of Mus musculus with 6 samples.

Results

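The genes that flank Nrarp on mouse chromosome 2 were examined in presomitic mesoderm, the tissue of the embryo's tail that segments into somites. The list holds 10 genes: Exd3, Noxa1, Entpd8, Nelfb, Tor4a, Tubb4b, Anapc2, Ssna1, Cysrt1 and Abca2. They were chosen by their place near Nrarp and with the intensity differences between the genotypes on these arrays already known, so every difference given for them is a description and none was tested. A probe that the annotation assigns to 1 gene was found for 7 of the 10 listed genes, of 13840 genes with such a probe in all. Each of the 7 has a single probe. Exd3, Entpd8 and Tubb4b have no probe of that kind and no value here.

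Knockout embryos carried LacZ, the bacterial beta-galactosidase gene, in place of the Nrarp coding region, an allele made by homologous recombination. They were compared with wild-type littermates from crosses of heterozygous parents, all taken at embryonic day 10.5. There were 3 one-colour arrays a genotype, with replicate numbers 1 to 3, from 12 dissected presomitic mesoderms of each genotype. The labels give neither the number of embryos behind an array, nor the strain, nor the structure of any selection cassette. The p-values below therefore cover only array-to-array spread, part or all of which may be technical.

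The Nrarp product, a short protein of ankyrin repeats, is induced by Notch signalling and feeds back on it. DNA beside a targeted gene is inherited together with the engineered allele, and inserted sequence can alter the activity of genes nearby, so neighbours are a usual check on such a line. The genes around Nrarp share no pathway. They encode general machinery of the cell (Nelfb, Anapc2, Ssna1, Tubb4b), enzymes and regulators at membranes (Noxa1, Entpd8, Tor4a, Abca2), a predicted exonuclease (Exd3) and a protein with a cysteine-rich tail (Cysrt1).

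Gene order was taken from RefSeq on GRCm38.p6, which was used for names and neighbourhood only, since the probe table names no build. Noxa1 is the nearest protein-coding gene on the side of lower coordinates, and Entpd8 lies next beyond it. On the other side, counting protein-coding genes away from Nrarp, Tor4a is at place 1, Nelfb at 2, Tubb4b at 5, Cysrt1 at 8, Ssna1 at 13, Anapc2 at 14 and Abca2 at 25. Exd3 has no entry in the RefSeq table, so its place was not checked. The stretch from Entpd8 to Abca2 holds 28 protein-coding genes including Nrarp, of which 17 were measured.

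The RefSeq promoter windows (GRCm38.p6), from 250 bases before to 50 bases after the transcript start, are shown for 3 genes. Nrarp is shown as the Notch target whose coding region was replaced, Cysrt1 as the member whose genotypes did not overlap, and Abca2 as the member with the largest difference. Capitals mark the letters TGGGAA on either strand (TTCCCA as printed on the other), the core recognised by Rbpj, the DNA-binding partner of the Notch intracellular domain.
Nrarp, chr2:25180508-25180807, plus strand: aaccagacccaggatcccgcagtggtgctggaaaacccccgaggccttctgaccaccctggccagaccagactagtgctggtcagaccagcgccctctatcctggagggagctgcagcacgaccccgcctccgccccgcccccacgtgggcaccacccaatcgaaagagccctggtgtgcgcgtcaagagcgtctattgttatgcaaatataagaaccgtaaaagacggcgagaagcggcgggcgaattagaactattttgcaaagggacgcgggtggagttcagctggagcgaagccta
Cysrt1, chr2:25239848-25240147, minus strand: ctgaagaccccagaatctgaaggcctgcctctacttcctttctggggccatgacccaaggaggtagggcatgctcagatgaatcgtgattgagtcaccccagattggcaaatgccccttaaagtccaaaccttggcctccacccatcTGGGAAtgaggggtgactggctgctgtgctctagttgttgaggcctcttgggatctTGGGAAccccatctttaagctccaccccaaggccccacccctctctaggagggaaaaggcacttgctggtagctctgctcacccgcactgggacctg
Abca2, chr2:25428349-25428648, plus strand: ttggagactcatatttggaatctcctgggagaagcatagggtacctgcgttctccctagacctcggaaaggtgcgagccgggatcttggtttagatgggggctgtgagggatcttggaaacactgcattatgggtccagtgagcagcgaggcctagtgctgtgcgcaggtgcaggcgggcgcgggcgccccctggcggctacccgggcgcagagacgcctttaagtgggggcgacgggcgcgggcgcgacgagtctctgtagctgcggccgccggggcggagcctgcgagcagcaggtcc

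The core occurred 2 times in the Cysrt1 window and 0 times in the windows of Nrarp and Abca2. Of the 8 listed genes with a window, it was found in those of Cysrt1, Nelfb, Tor4a and Tubb4b and was not found in those of Noxa1, Entpd8, Anapc2 and Abca2. Among all 32851 RefSeq windows 25.6% hold it, so a match describes the letters and no bound site. The letters TATAAA, the TATA box core, were found in the windows of Nelfb and Tubb4b, against 13.6% of all windows. The windows also differ in CpG pairs, with 34 for Anapc2, 26 for Abca2, 16 each for Nelfb and Tubb4b, 8 for Noxa1, 5 for Tor4a, 4 for Entpd8 and 2 for Cysrt1. The Nrarp window has 21, and the median over all windows is 7.

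The targeted gene itself was checked first. Its probe read 14.3, 42.5 and 23.3 in knockout tissue, in intensity units scaled so that the median probe of an array is close to 1, against 318, 429 and 448 in wild-type tissue. The groups were far apart, and the log2 difference was -4.03, so the knockout signal was 6.14% of wild type. Over all probes, limma gave an adjusted p of 0.428 without a replicate term and of 0.00042 with the replicate number as a block. The labels do not say where in Nrarp the probe binds, and the reading checks the genotypes only if its target was replaced by LacZ. Markers of presomitic mesoderm were present, all 10 measured ones above the array median on every array. Tbx6 read 712 ± 197 in the knockout and 606 ± 170 in wild type (SD, n = 3 each). Of the 10, 6 read lower and 4 higher in the knockout (median log2 difference -0.05). Rspo3 read lower on every knockout array, against 1.48% of named genes. Some were bright only on the replicate 1 arrays. Hes7 read 64.1, 1.63 and 1.2 in the knockout and 54.25, 1.36 and 2.09 in wild type. Primitive blood markers were bright on every array, with a summed intensity over 5 genes of 4893 to 7736 in knockout arrays and 5775 to 7685 in wild-type arrays. Of these 5 genes 4 read lower in the knockout (median log2 difference -0.18). All 6 gut endoderm markers read lower (median -0.30), against 50.5% of named genes, with summed intensities of 98.3 to 266 in the knockout and 113 to 245 in wild type. Their differences ran from -1.72 (Apoa1, above the array median on 1 array) to -0.004 (Cldn6). Summed intensities of the neural tube, endothelium, surface ectoderm, notochord, and lateral plate and limb bud lists overlapped between genotypes. A sum follows the brightest genes of a list. Of the 6 measured surface ectoderm genes 4 read higher and 2 lower. Krt14 and Krt5 were higher on every knockout array, against 1.83% of named genes. In the lateral plate and limb bud list differences ran from -1.56 (Lhx9) to 0.67 (Pitx1). No gene of any marker list passed limma in either fit. In bulk tissue fewer cells of a type and less RNA per cell cannot be told apart, and the part of other cell types in the values below was not tested.

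For 5 of the 7 measured neighbours the genotypes read nearly alike, and for Cysrt1 and Abca2 they did not. The 5 log2 differences lay between -0.16 and 0.06, each smaller than the pooled SD of the gene within genotypes. Of all 7 genes, 5 read lower and 2 higher in the knockout, with a median log2 difference of -0.03. Over all 13840 named genes 50.5% read lower, with a median of -0.003. The median absolute log2 difference was 0.10 in the 7 genes and 0.19 over all named genes.

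**Figure D1:**
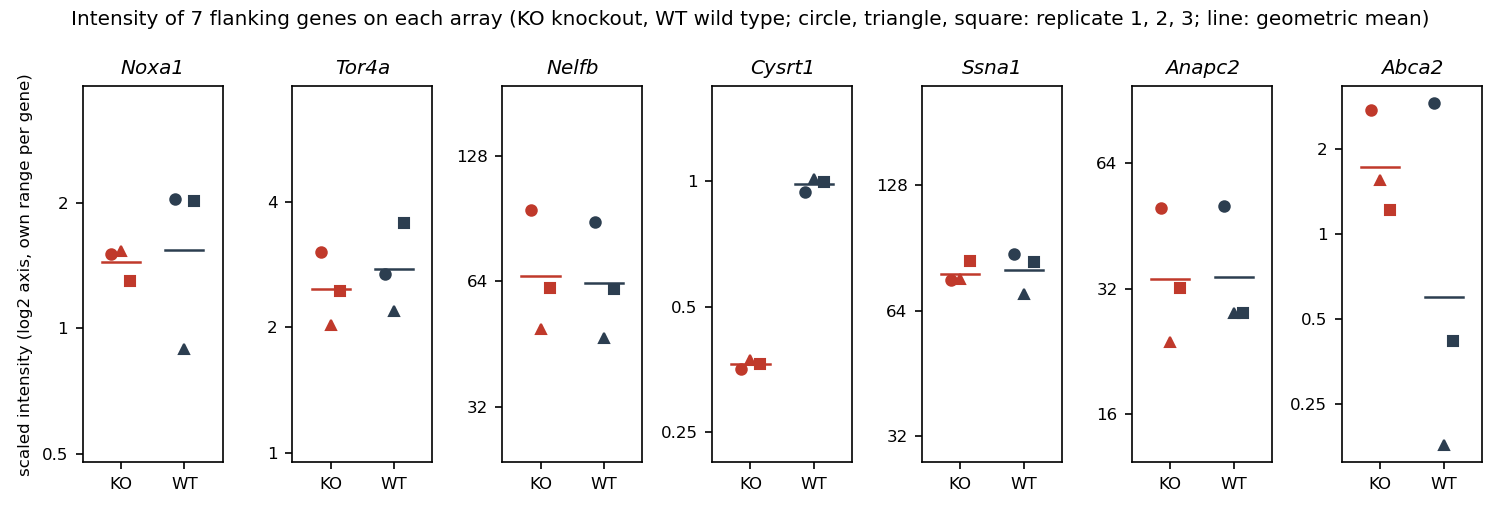
Scaled intensity on a log2 axis for the 7 measured flanking genes in chromosome order, with knockout arrays left of wild-type arrays, replicates 1, 2 and 3 as circle, triangle and square, and the geometric mean as a line. Cysrt1 is the one gene whose 3 knockout arrays (0.354 to 0.372) lie clear of the 3 wild-type arrays (0.941 to 1.01), and Abca2 is the one whose wild-type arrays spread most (0.178 to 2.91).

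Among the genes of general cell machinery, Nelfb encodes a subunit of the negative elongation factor, which holds RNA polymerase II paused near the start of genes. Nelfb read 94.7, 49.1 and 61.6 in the knockout and 88.7, 46.7 and 61.3 in wild type. The arrays of one replicate number lay side by side in both genotypes, the groups overlapped fully, and the log2 difference was 0.06, positive in all 3 pairs of equal number (0.09, 0.07 and 0.01). Anapc2 encodes the cullin-like scaffold of the anaphase-promoting complex, the ubiquitin ligase that drives cells out of mitosis. Its readings were 50.04, 23.8 and 32.1 in the knockout and 50.5, 28.0 and 28.0 in wild type, again overlapping, with a log2 difference of -0.02. Ssna1 encodes a coiled-coil protein of centrosomes and basal bodies that binds microtubules. It read 75.6, 76.1 and 84.2 in the knockout and 87.6, 70.0 and 83.6 in wild type, a log2 difference of -0.03. Its 6 arrays spanned only 1.25-fold, and 2.92% of named genes had a pooled SD within genotypes as small as its 0.14 on the log2 scale.

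Tor4a and Noxa1, the measured genes on each side of Nrarp that lie closest to it, were dimmer probes. Tor4a encodes a torsin, an ATPase of the endoplasmic reticulum. It read 3.04, 2.03 and 2.45 in the knockout and 2.69, 2.19 and 3.55 in wild type, and the log2 difference of -0.16 was the mean of pairs that differed in sign (0.18, -0.11 and -0.54). Noxa1 encodes an activator of the NADPH oxidase Nox1, which makes superoxide. Its values were 1.51, 1.53 and 1.30 in the knockout and 2.04, 0.893 and 2.03 in wild type. The knockout arrays lay inside the wild-type range, and the log2 difference of -0.10 came from pairs of -0.43, 0.78 and -0.64.

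Cysrt1, named for the cysteine-rich tail of its small protein, read lower on every knockout array. It read 0.354, 0.372 and 0.364 in the knockout and 0.941, 1.01 and 0.997 in wild type. The mean was 0.364 ± 0.00902 in the knockout and 0.983 ± 0.0366 in wild type (SD, n = 3 each), a log2 difference of -1.43 or 37.0% of the wild-type reading. With an offset of 1 added before log2, which shrinks the differences of dim probes, it was -0.54. The 3 pairs gave -1.41, -1.44 and -1.45. The probe is dim in both genotypes: in wild type it sat at 0.959, 1.02 and 1.00 times the array median, and in the knockout at 0.358, 0.379 and 0.367 times. No detection flags were used, so whether either reading stood above background was not tested.

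The spread of Cysrt1 within genotypes was small for a probe of its level. Its pooled SD was 0.05 on the log2 scale, and 10 of 13840 named genes, itself included, were at or below it. Among 3169 genes whose mean log2 intensity lay within 0.5 of that of Cysrt1, the median pooled SD was 0.72, and Cysrt1 was the only 1 with a value that low. Equal intensities did not mean equal rank, because the replicate 1 arrays have a wider range. The knockout readings stood at percentile 30.6 of the array in replicate 1 and at 7.99 and 9.68 in replicates 2 and 3, against 49.4, 50.5 and 50.1 in wild type. After quantile normalization, which gives all arrays one distribution, the log2 difference was -1.53, the knockout arrays were still all lower, and the pooled SD was 0.33.

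**Figure D2:**
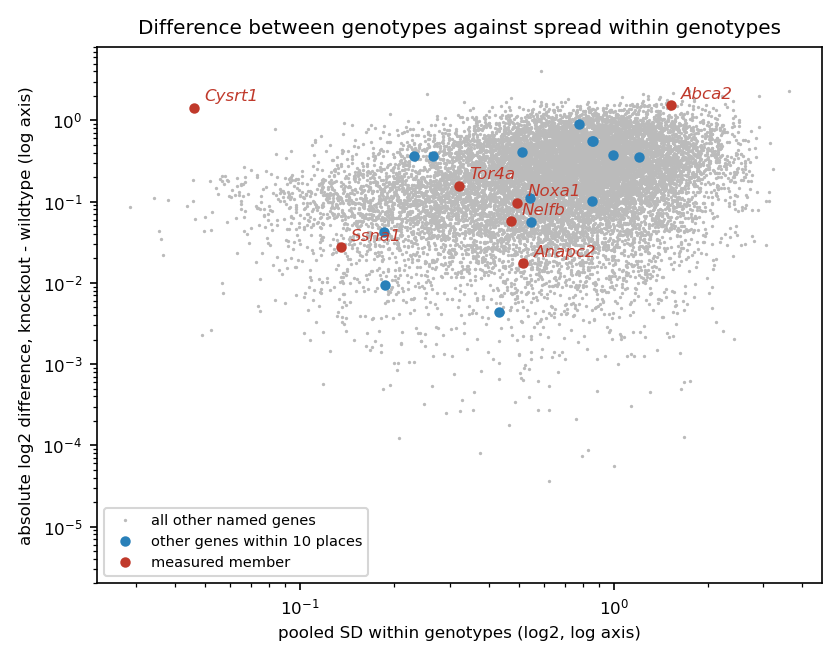
Absolute log2 difference between knockout and wild type against the pooled SD within genotypes, both on log axes, for every named gene (grey), the other genes within 10 measured places of Nrarp (blue) and the measured members (red). Cysrt1 lies at a difference of 1.43 with an SD of 0.05, while Abca2 has a similar difference of 1.53 with an SD of 1.52.

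Abca2, a lipid transporter of endosomes and lysosomes best known from myelinating cells, had the largest difference of the 7 and the widest spread. It read 2.76, 1.55 and 1.22 in the knockout and 2.91, 0.178 and 0.416 in wild type. The genotypes overlapped, because wild-type replicate 1 was the highest of all 6 arrays, and the 6 arrays spanned 16.4-fold. The log2 difference was 1.53, of the size of its pooled SD of 1.52, and the pairs gave -0.08, 3.13 and 1.55. Without wild-type replicate 2 it was 0.66, and without wild-type replicate 1 it was 2.67. Wild-type replicate 2 placed the probe at percentile 0.533 of the array and wild-type replicate 3 at 14.9, against 62.7, 59.5 and 54.7 in the knockout and 64.0 in wild-type replicate 1.

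Counts of separated genes were set beside those of all named genes. Every knockout array was below every wild-type array for 1 of the 7 genes (Cysrt1), against 1.48% of all named genes, and above for 0, against 1.83%. An absolute log2 difference over 1 was found in 2 of the 7 (Cysrt1 and Abca2), against 3.16%. One sign in all 3 replicate pairs was found in 2 of the 7 (Cysrt1 and Nelfb), against 23.3%. Since the genes were chosen with these differences in view, nothing is read from these counts. Without the replicate 1 arrays of both genotypes, a setting added after the data were seen, Cysrt1 remained lower on both knockout arrays (17% of named genes are) and Abca2 became higher on both (14.9%). Of the 14 other genes within 10 measured places of Nrarp, 3 were lower and 3 higher on both in that setting.

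Arrays also differed by replicate number. The replicate 1 arrays have a wider range, with 75th percentiles of 9.71 in the knockout and 8.88 in wild type, against 4.90 and 5.43 on the other knockout arrays and 5.52 and 5.88 on the other wild-type arrays. Both replicate 1 arrays were above the other 4 arrays for Nelfb, Anapc2 and Abca2, which is 3 of the 7 genes against 38.1% of named genes. Both were below the other 4 for 0 of the 7, against 26.6%. The first of these shares is near that of all named genes, so it does not set the neighbours apart. For Anapc2 the replicate 1 array exceeded the mean of the other 2 by 0.86 on the log2 scale in the knockout and by 0.85 in wild type, and for Nelfb by 0.78 and 0.73. For Abca2 these values were 1.00 in the knockout and 3.42 in wild type. Quantile normalization left an excess of 0.50 for Nelfb, 0.44 for Anapc2 and 2.00 for Abca2 over both genotypes, against 0.76, 0.85 and 2.21 before it. Before quantile normalization Ssna1 and Cysrt1 barely differed by replicate number, at 0.06 and -0.07. After it the values were -0.19 for Ssna1 and 0.36 for Cysrt1.

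**Figure D3:**
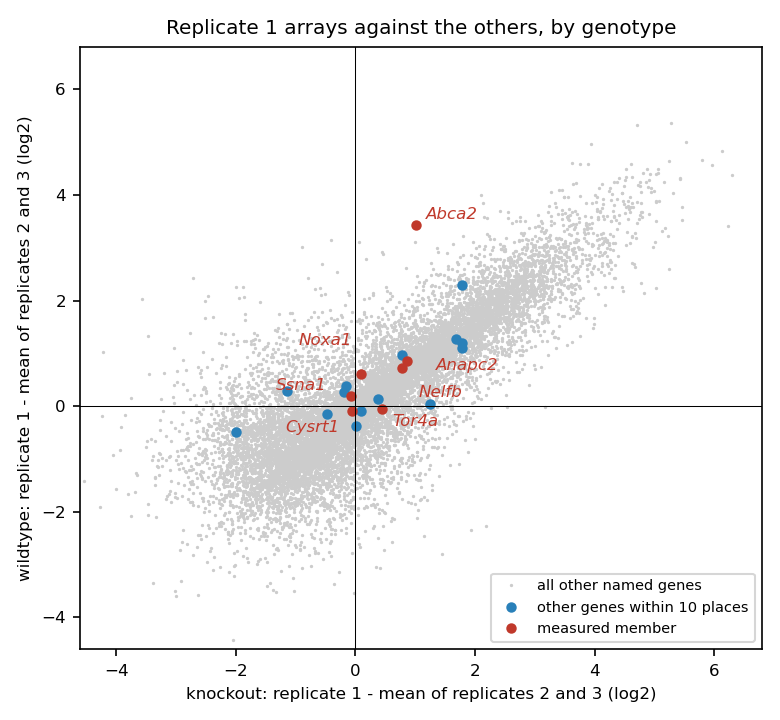
Log2 intensity of replicate 1 minus the mean of replicates 2 and 3, in the knockout (horizontal axis) and in wild type (vertical axis), for all named genes (grey), the other genes within 10 places of Nrarp (blue) and the measured members (red). Nelfb and Anapc2 shift by nearly the same amount in both genotypes (0.78 and 0.73, 0.86 and 0.85), whereas Abca2 shifts by 1.00 in the knockout and 3.42 in wild type.

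The neighbours that had not been picked could be tested. Within 10 measured genes on each side of Nrarp lie 20 genes, 6 of them members and 14 others, 9 of these on the side of Noxa1 and 5 on the side of Tor4a. In the limma fit over all 33012 probes 0 of the 14 passed an adjusted p of 0.05, against 0% of all probes. That fit did not call even Nrarp, so its counts of 0 and its adjusted p-values do not show that a gene is unaltered. The fit with the replicate number as a block did call Nrarp, and in it 0 of the 14 passed as well, against 0.00606% of all probes, which are 2 probes. Nrarp differs far more than any of the 14. On simulated data with 200 seeded changes a run, the blocked fit called 52.8% of the 2-fold ones. That share holds for the simulation only, and the sensitivity on the real arrays was not tested. The 0 of the blocked fit does not show the 14 unaltered either. An unadjusted p under 0.05 was reached by 0 of the 14 without the block, against 0.657% of all probes, and by 1 with it (Dph7), against 3.75%. Of the 14, 9 read lower and 5 higher in the knockout, with a median log2 difference of -0.08, a median absolute difference of 0.36 and a range of -0.91 to 0.56. One sign in all 3 pairs was found in 5 of the 14, against 23.3% of named genes, and 0 of the 14 were separated, against 1.48% lower and 1.83% higher.

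Rnf208, a RING finger gene and the next measured gene after Cysrt1, had the most negative of these differences. It read 1.86, 1.27 and 0.487 in the knockout and 2.00, 2.70 and 1.41 in wild type, overlapping because knockout replicate 1 lay above wild-type replicate 3. The log2 difference was -0.91 (95% interval -2.30 to 0.48, limma adjusted p = 1.00), and the pairs were -0.11, -1.09 and -1.53. With the replicate block the interval was -1.85 to 0.03 and the limma adjusted p 0.9995 (0.0562 unadjusted). Slc34a3, a sodium-phosphate cotransporter gene of the kidney and the measured gene before Cysrt1, differed by -0.11 (95% interval -1.34 to 1.11). With the block its interval was -1.27 to 1.05. In both fits the intervals of both genes include 0. Rnf208 lay above the array median on 5 of 6 arrays, and Slc34a3 on 0.

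On the other side, Dph7, which takes part in making the diphthamide residue of elongation factor 2, had the most positive difference. It read 19.1, 5.51 and 6.48 in the knockout and 10.8, 4.36 and 4.58 in wild type. The log2 difference was 0.56 (95% interval -0.83 to 1.94, limma adjusted p = 1.00), with pairs of 0.83, 0.34 and 0.50. The blocked interval was narrower, 0.11 to 1.00, and its adjusted p was 0.9995. Il1rn, the interleukin 1 receptor antagonist gene, differed by -0.56 at readings of at most 0.502 on every array. The differences were -0.41 for Pax8, -0.37 for the arrestin-domain gene Arrdc1, -0.37 for the Arf6 exchange factor gene Psd4, 0.35 for Nsmf, which signals from synapse to nucleus, and 0.37 for the potassium channel subunit gene Lrrc26. They were at most 0.11 in size for the calcium channel gene Cacna1b (0.01), Zmynd19 (-0.10), the lysophospholipase gene Pnpla7 (-0.06), the taperin gene Tprn (-0.04) and Fam166a (0.00 and 0.09 for its 2 probes). Of these genes, Psd4 read 10.6, 9.52 and 11.6 in the knockout and 11.3, 12.3 and 17.8 in wild type, and the groups overlapped only because knockout replicate 3 lay above wild-type replicate 1.

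**Figure D4:**
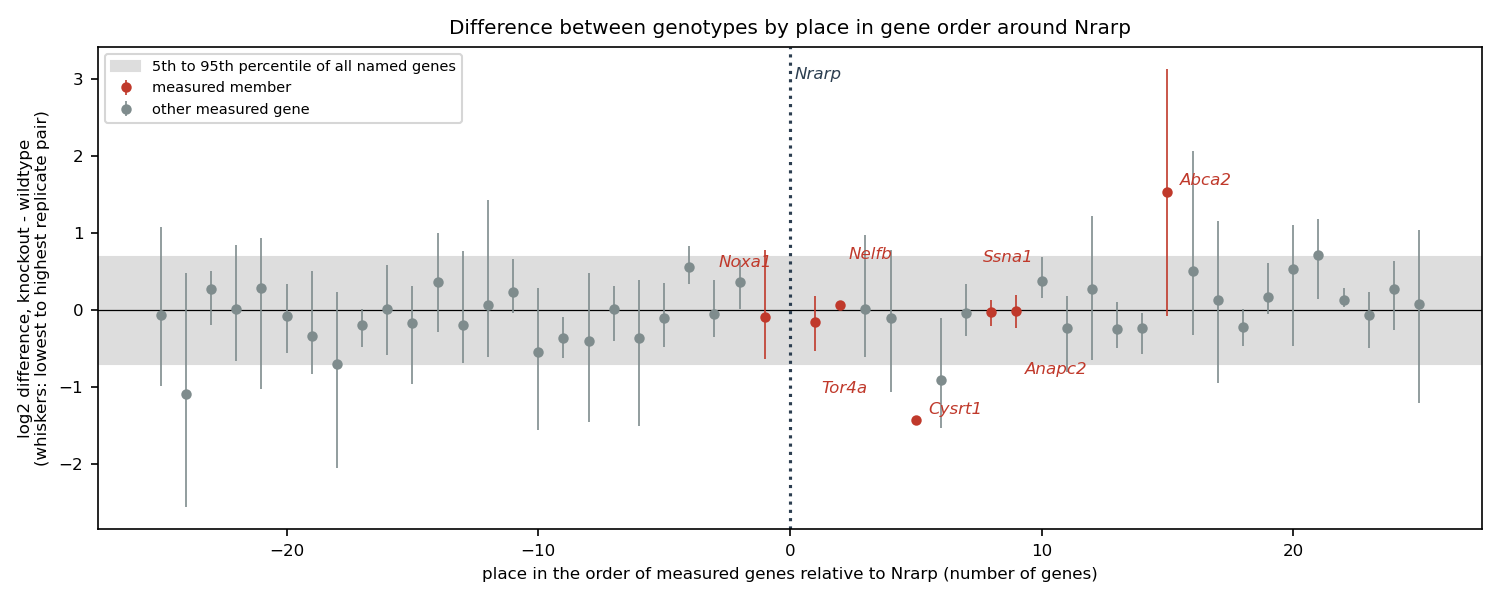
Log2 difference between knockout and wild type (points) for the 25 measured genes on each side of Nrarp, in gene order, with whiskers from the lowest to the highest replicate pair, and a grey band from the 5th to the 95th percentile of all named genes (-0.70 to 0.69). Cysrt1 lies below the band with almost no spread between pairs, and Abca2 lies above it with pairs from -0.08 to 3.13. Genes that are not members also lie outside it, with Thnsl1 (-1.1), Rnf208 (-0.91) and Mastl (-0.71) below and Fbxw5 (0.71) above.

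Differences were also set out by place in gene order, as a description. The median absolute log2 difference was 0.13 for the 20 genes within 10 places of Nrarp, 0.23 for the 30 genes at places 11 to 25 and 0.18 for the 50 genes at places 26 to 50. It was 0.20 for the 1080 other measured genes of chromosome 2 and 0.19 for the 12659 named genes not placed on it. Separated groups were found in 1 of the 20 (Cysrt1), in 0 of the 30 and in 1 of the 50 (Nsun6, which was named after its values were seen), against 3.24% of the other genes of chromosome 2 and 3.32% of the remaining named genes. In the nearest band 14 of 20 differences were negative, with a median of -0.08, and in the next 13 of 30 were, with a median of 0.04. The nearest band holds 6 members, whose values were known when they were chosen, and the next holds 1. The 14 genes of the nearest band that are not members had a median absolute log2 difference of 0.36, beside the 0.19 of all named genes. They are what was left once members with known values were taken out, so nothing is read from this contrast.

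Genes of the same complex or family as a neighbour were read beside it. Of 56 listed partner genes 45 were measured, 18 lower and 27 higher in the knockout, with a median log2 difference of 0.03. None passed the limma fit over all probes with or without the block (0 of 45, smallest adjusted p 1.00 and 0.9995). An unadjusted p under 0.05 was reached by 0 without the block and by 1 with it (Anapc1), a smaller share than the 3.75% of all probes. The partner lists were chosen with earlier results of these data known. The fit without the block did not call even Nrarp, so these counts do not show that a partner gene is unaltered.

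The other subunits of the negative elongation factor were measured in full. Nelfcd read 75.1 ± 1.03 in the knockout and 74.2 ± 8.20 in wild type (SD, n = 3 each), a log2 difference of 0.02 beside the 0.06 of Nelfb. Nelfe differed by -0.23, with readings of 38.9, 2.60 and 4.09 in the knockout and 32.2, 5.79 and 3.60 in wild type, so that its replicate 1 arrays stood far above the others in both genotypes. Of 12 measured subunits and activators of the anaphase-promoting complex, 8 read higher and 4 lower, with a median of 0.05. Anapc1, the largest subunit, had the largest difference at 1.24 (95% interval -0.36 to 2.85). It is a dim probe at 0.679, 2.02 and 0.364 in the knockout and 0.250, 0.449 and 0.335 in wild type. Anapc11, the RING subunit that pairs with Anapc2, read 206, 489 and 399 in the knockout and 234, 434 and 466 in wild type, a log2 difference of -0.08.

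Beta-tubulins stand in for Tubb4b, which has no value here, only as members of its family. Of the 5 measured genes 3 read higher and 2 lower in the knockout (median log2 difference 0.12). Tubb5 read 1259, 1271 and 1482 in the knockout and 1226, 1128 and 1337 in wild type, a log2 difference of 0.12. Tubb2b, at 538, 814 and 502 in the knockout and 410, 480 and 548 in wild type, differed by 0.34 (95% interval -0.24 to 0.92). These genes are close in sequence, and the probe sequences were not used here, so a reading may include signal from a related transcript.

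The families of the membrane genes were mostly dim. All 6 listed torsins and their cofactors were measured, 4 higher and 2 lower, with differences from -0.13 (Tor1a) to 0.08. The cofactor gene Tor1aip2 differed by 0.05. Of the 6 measured oxidase genes, the catalytic partners Nox1 and Nox3 lay below the array median on every array, and Nox3 differed by -0.73 (95% interval -1.98 to 0.53). The GTPase gene Rac1 read 367, 502 and 541 in the knockout and 349, 505 and 487 in wild type, a difference of 0.07. The nucleotidases related to Entpd8 ranged from -0.19 to 0.27. The highest value is that of Entpd2, which lies between Anapc2 and Abca2 on chromosome 2 and read 0.373, 0.660 and 1.70 in the knockout and 0.585, 0.555 and 0.732 in wild type. Entpd5, another of them, differed by 0.04. Among the 7 measured transporters of the Abca2 family, 5 read lower and 2 higher, with a median of -0.22 beside the 1.53 of Abca2. Abca1 differed by -0.37 and Abca4 by -0.87 (95% interval -2.63 to 0.89), and 0 of the 7 were above the array median on every array.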

How the data were processed

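Per the labels' protocols, digoxigenin-labelled cRNA was read on one-colour Applied Biosystems arrays. A human array is named in the labels, but organism and probe annotation are those of the mouse. The deposited values are linear probe intensities that the authors had scaled to array medians of 0.981 to 0.993; for background correction, flags and software no source was at hand. Array sums were 1019520 to 1125059, and the number of arrays limits the precision.

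Intensities were converted to log2 with no offset or filter, and 1 probe a gene was used (the highest mean log2 over 6 arrays). Of 33012 probes, 14411 had 1 gene, 247 several and 18354 none here. Knockout and wild type were compared with limma 3.58.1 in R 4.3.3 (intensity trend, two-sided, Benjamini-Hochberg over all probes, threshold 0.05). The fit was tested on simulated data drawn from the model with the replicate block, which favours that fit. Changes were seeded only in probes above the median level. Without the block 0% of them were called, and with it 52.8% of the 2-fold and 88.6% of the 4-fold changes. Each run held 200 seeded changes, and an adjusted p depends on how many changes there are. These shares are therefore not the sensitivity on the real arrays. The rest was computed in Python 3.11.15 (numpy 2.4.6, pandas 2.3.3) and drawn with matplotlib 3.10.9. The genes discussed one by one are Nrarp, the members, the other genes within 10 measured places, and in each partner list the brightest gene and the one with the largest difference. A few others were picked after their values were seen. Shares of named genes are over the 13840 genes with a single-gene probe. Members and lists were chosen with earlier results of these data known.

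Replicate numbers occur in both genotypes. Deviations from the group means correlated within numbers by 0.757, 0.442 and 0.374, so arrays of one number were taken as pairs, on the data alone. Between numbers 2 and 3 they correlated by 0.419 and 0.397, so pairs 2 and 3 could be matched otherwise. An exact permutation test of 3 against 3 arrays cannot go below 0.1 and was not used.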

Additional observations from a re-analysis of the deposited data

How the results depend on the processing

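The count of probes called was 0 without and 2 with the replicate block, 2 without replicate 1 of both genotypes, and 0 under the other alternatives run; leaving out replicates gave 0 to 2. The counts of other flanking genes and of partner genes called were 0 under every alternative run, the replicate block included. The number of measured members that read lower in the knockout was 5, was 3 with centring on 75th percentiles, and ranged from 2 to 6 when replicates were left out (2 without wild-type replicate 1 and without wild-type replicate 3, 3 without replicate 1 of both genotypes). It is not a stable count, since 5 of the 7 differences lie near 0 and each of these 5 changed sign under 1 to 4 of 11 settings. Cysrt1 kept a negative difference in all 11 (-1.53 to -0.54, the smallest with an offset of 1 added before log2) and Abca2 a positive one in all 11 (0.57 to 2.67). Leaving out arrays could not change the sign of Cysrt1, whose groups do not overlap. Averaging all probes, another of the 11, changes nothing for genes with 1 probe. The number of members higher on every knockout array was 0, and 1 (Abca2) without replicate 1 of both genotypes, where fewer arrays had to separate. Bands of 5, 15 and 30 places gave a median absolute difference of 0.11 in the nearest band. Readings near or below the array median, such as those of Cysrt1, cannot be set against background here.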
